A study of Macaca mulatta with 24 samples.

Results

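The genes described here are the adenosine receptors ADORA1, ADORA2A and ADORA2B, the equilibrative nucleoside transporters SLC29A1 and SLC29A2, and the adenosine-handling enzymes ADK and NT5E. They were chosen by symbol, and all 7 occurred once among the 17208 gene symbols measured and passed the filter of 1 TPM on the mean (TPM being a share of each animal's total that is corrected for gene length and scaled to a fixed sum), as did 13637 genes in all. RNA-Seq had been done on the nucleus accumbens core (NAcc), the part of the ventral striatum that joins cortical and dopaminergic input to motivated behavior, in 24 unrelated adult male rhesus macaques. Of these, 8 were controls, 8 were low or binge drinkers (LD*) and 8 were high drinkers (HD*). The labels do not separate low from binge drinkers. The HD* group was made up of 4 animals in the HD (heavy drinker) and 4 in the VHD (very heavy drinker) category. All animals lived in operant drinking cages. Ethanol at 4% was introduced by schedule-induced polydipsia over 4 months and was then freely available for 22 hours a day over 12 months, and tissue was taken without a period of abstinence. Controls went through the same schedule with water on both spouts and a 10% maltose dextrin solution that matched calories. LD* animals drank 1.58 ± 0.53 g/kg of ethanol per day and HD* animals 3.14 ± 0.33 g/kg (mean ± SD, 8 animals each), with 2.92 ± 0.16 g/kg in the HD and 3.37 ± 0.29 g/kg in the VHD category (4 animals each). Each animal was measured once, in a dissection of bulk tissue from one of 4 cohorts, so that fewer cells of a type and less RNA per cell cannot be told apart. Animals are named by group and a number that carries no order.

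Adenosine is formed outside cells when the ectonucleotidase NT5E (CD73) removes the last phosphate from AMP, crosses the membrane in either direction through SLC29A1 (ENT1) and SLC29A2 (ENT2), and is removed inside cells by adenosine kinase (ADK), which turns it back into AMP. ADORA1 couples to inhibitory G proteins and dampens transmitter release, while ADORA2A and ADORA2B raise cyclic AMP. In the striatum ADORA2A is concentrated in the projection neurons of the indirect pathway, which also express the dopamine receptor DRD2 and the opioid precursor PENK, and SLC29A1 is a long-known target of acute ethanol.

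The values are shares of a total of between 999998 and 1000000 per animal, so the depth behind them is unknown and no counting error can be given. Tissue identity was uneven. The summed level of 9 striatal projection neuron markers (among them PPP1R1B and PDE10A) lay between 2248 and 8853 TPM in 23 animals and at 576.5 TPM in Control 6, which also had 44.1 TPM of DRD2 and the lowest median correlation with the other animals, 0.924 against at least 0.951. SLC17A7, a marker of cortical excitatory neurons, exceeded 100 TPM in Control 2, Control 7, HD* 7, LD* 2, LD* 4 and LD* 6. Results that rest on Control 6 are therefore given with and without it.

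ADORA2A was the most abundant of the 7 genes per unit of gene length, with a mean of 287.6 TPM over the 24 animals and rank 600 of all genes. ADORA1 followed at 72.3 TPM, then SLC29A1 at 40.4 TPM, ADK at 30.7 TPM, NT5E at 15.3 TPM, ADORA2B at 13.2 TPM and SLC29A2 at 12.3 TPM. The upper part of this order held in nearly every animal. ADORA2A exceeded ADORA1 in 23 of 24 animals (all but Control 6), ADORA1 exceeded SLC29A1 in 23 (all but LD* 2), and ADK exceeded NT5E in all 24. Other neighbours in the order were less distinct, since SLC29A1 exceeded ADK in 18 animals, NT5E exceeded ADORA2B in 19 and ADORA2B exceeded SLC29A2 in 15. The spread between animals was widest for ADORA2A (coefficient of variation 47.9%, and 42.6% without Control 6) and narrowest for ADK (13.5%) and NT5E (16.6%).

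**Figure D1:**
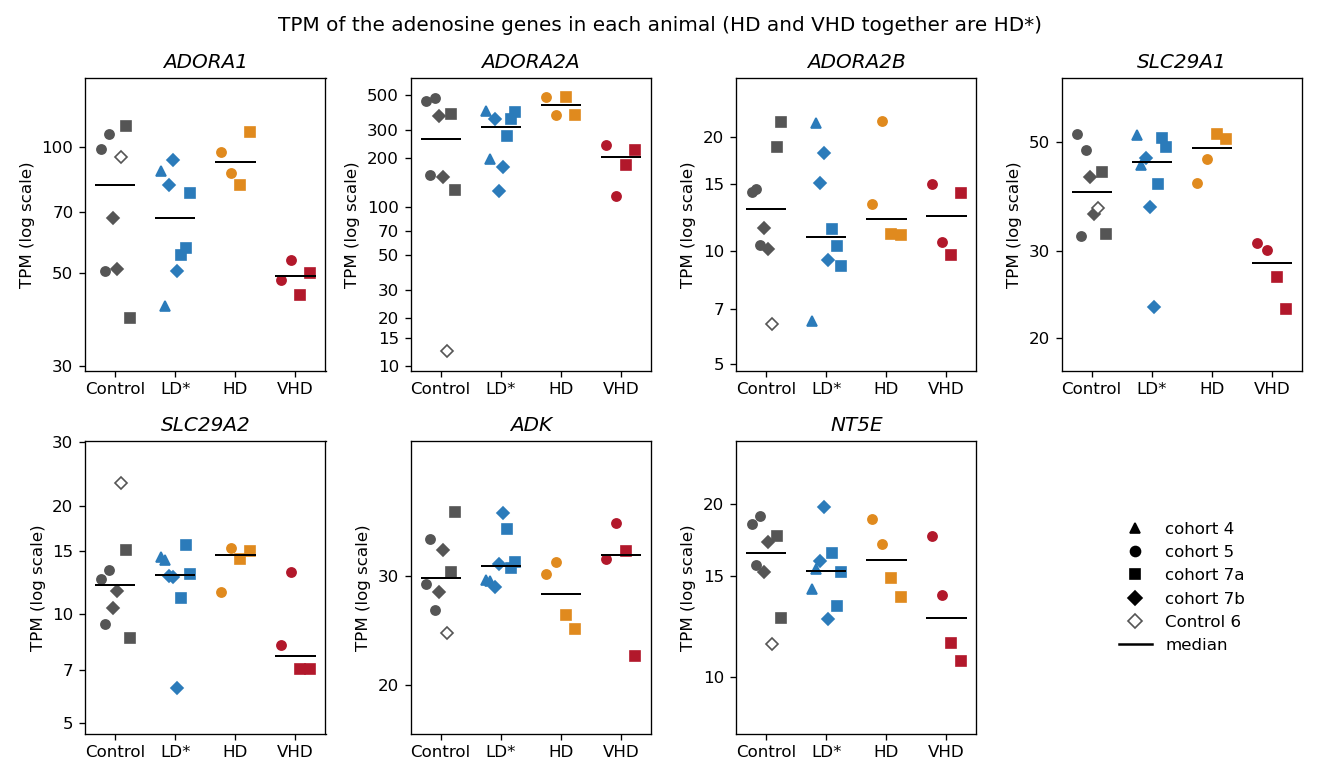
TPM of each gene on a log scale, with 1 point per animal, the 4 categories on the horizontal axis, point shape for cohort and a line at the category median. ADORA2A in Control 6 (open symbol) lies at 12.5 TPM, below the 117 TPM of the next lowest animal, and the VHD points for ADORA1, ADORA2A and SLC29A1 lie below all HD points.

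None of the 7 genes passed the test when either drinking group was set against controls or HD* animals against LD* animals, and every pair of ranges overlapped. The first 2 of these comparisons share the 8 control animals. At an adjusted p under 0.05 (limma on log2(TPM + 1), Benjamini-Hochberg over all genes tested), 0 of 13637 genes passed in any of the 3 comparisons (0% in each). The paper, which used DESeq2 on read counts, did report genes at this threshold for HD* against controls and for HD* against LD*. The absence of calls therefore holds only for the test on TPM used here. Without adjustment, a p under 0.05 was reached by 775 genes for HD* against controls (5.68%), 387 for LD* against controls (2.84%) and 147 for HD* against LD* (1.08%), and by 0 of the 7 genes in each case. Groups without any overlap were found for 0, 0 and 1 of the 13637 genes (0%, 0% and 0.00733%).

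Among the receptors, ADORA1 ranged from 39.1 to 112 TPM in controls (median 81.1), from 41.8 to 93.2 TPM in LD* animals (median 67.6) and from 44.3 to 108 TPM in HD* animals (median 67.5). The 3 ranges overlapped almost completely. The log2 fold change of ADORA1 was −0.11 for HD* against controls (SE 0.236, 95% interval −0.59 to 0.38, adjusted p = 0.868, limma) and −0.14 for LD* against controls (SE 0.236, adjusted p = 1.00).

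ADORA2A ranged from 12.5 to 481.5 TPM in controls (median 264), from 125 to 394 TPM in LD* animals (median 314) and from 117 to 489 TPM in HD* animals (median 309). The low end of the control range was set by Control 6 alone, the other 7 controls lying between 126 and 481.5 TPM. The log2 fold change of 0.62 for HD* against controls (SE 0.521, 95% interval −0.46 to 1.69, adjusted p = 0.713, limma) was 0.079 without Control 6 (adjusted p = 0.942), and that of 0.52 for LD* against controls (SE 0.521, adjusted p = 1.00) was −0.014 without it. HD* and LD* animals differed by 0.093 (SE 0.521, adjusted p = 0.975).

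ADORA2B, the low-affinity receptor, ranged from 6.396 to 22.0 TPM in controls (median 12.9), from 6.49 to 21.9 TPM in LD* animals (median 10.8) and from 9.72 to 22.1 TPM in HD* animals (median 12.2). Its log2 fold change was 0.023 for HD* against controls (SE 0.227, adjusted p = 0.970, limma) and −0.087 for LD* against controls (SE 0.227, adjusted p = 1.00). Without Control 6, the control with the lowest ADORA2B, these fold changes were −0.105 and −0.215.

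The ranges of the transporters overlapped as well. SLC29A1 ranged from 32.2 to 51.9 TPM in controls (median 39.6), from 23.1 to 51.8 TPM in LD* animals (median 45.7) and from 22.9 to 51.9 TPM in HD* animals (median 36.3), with a log2 fold change of −0.14 for HD* against controls (SE 0.174, adjusted p = 0.769, limma) and −0.21 for HD* against LD* (SE 0.174, adjusted p = 0.936). SLC29A2 ranged from 8.62 to 23.2 TPM in controls (median 12.0), from 6.24 to 15.6 TPM in LD* animals (median 12.9) and from 7.07 to 15.2 TPM in HD* animals (median 12.3), and its log2 fold change for HD* against controls was −0.17 (SE 0.198, adjusted p = 0.759). The highest SLC29A2 value, again, was that of Control 6. Without that animal the log2 fold change of SLC29A2 for HD* against controls was −0.049 (adjusted p = 0.934, limma). For LD* against controls it was −0.034 with Control 6 and 0.087 without it.

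The enzymes varied least. ADK ranged from 24.3 to 38.0 TPM in controls (median 29.8), from 28.8 to 37.9 TPM in LD* animals (median 31.1) and from 22.3 to 36.6 TPM in HD* animals (median 30.9), with a log2 fold change of −0.049 for HD* against controls (SE 0.104, 95% interval −0.26 to 0.17, adjusted p = 0.863, limma). NT5E ranged from 11.4 to 19.1 TPM in controls (median 16.4), from 12.6 to 19.7 TPM in LD* animals (median 15.3) and from 10.7 to 18.8 TPM in HD* animals (median 14.4), with a log2 fold change of −0.11 (SE 0.124, 95% interval −0.36 to 0.15, adjusted p = 0.760). These intervals are narrow beside that of ADORA2A, whose upper end was 1.69. The median over the 7 genes was −0.11 for HD* against controls, beside −0.12 over all genes. TMM rescaling (trimmed mean of M-values) moved the latter to −0.0064 and turned ADORA1, ADK and NT5E to values above 0.

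A list of other genes of adenosine formation, removal and transport, with the receptor ADORA3, had 42 members in the data, of which 32 averaged 1 TPM or more. The most abundant were the AMP deaminase AMPD2 (mean 243 TPM), AHCYL1 (207 TPM), a relative of the hydrolase that releases adenosine from S-adenosylhomocysteine, and the purine salvage enzyme HPRT1 (165.5 TPM), while adenosine deaminase (ADA) averaged 12.2 TPM. For HD* against controls 0 of the 32 passed, with a median log2 fold change of −0.17 beside −0.12 over all genes. The smallest p-values belonged to the adenylate kinase AK4 (−0.27, SE 0.105), the AMP deaminase AMPD3 (−0.40, SE 0.155) and the cytosolic nucleotidase NT5C2 (−0.30, SE 0.118), each with an adjusted p of 0.706 (limma). AK4 ranged from 23.8 to 33.8 TPM in controls and from 20.4 to 30.6 TPM in HD* animals, so that these groups overlapped as well.

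**Figure D2:**
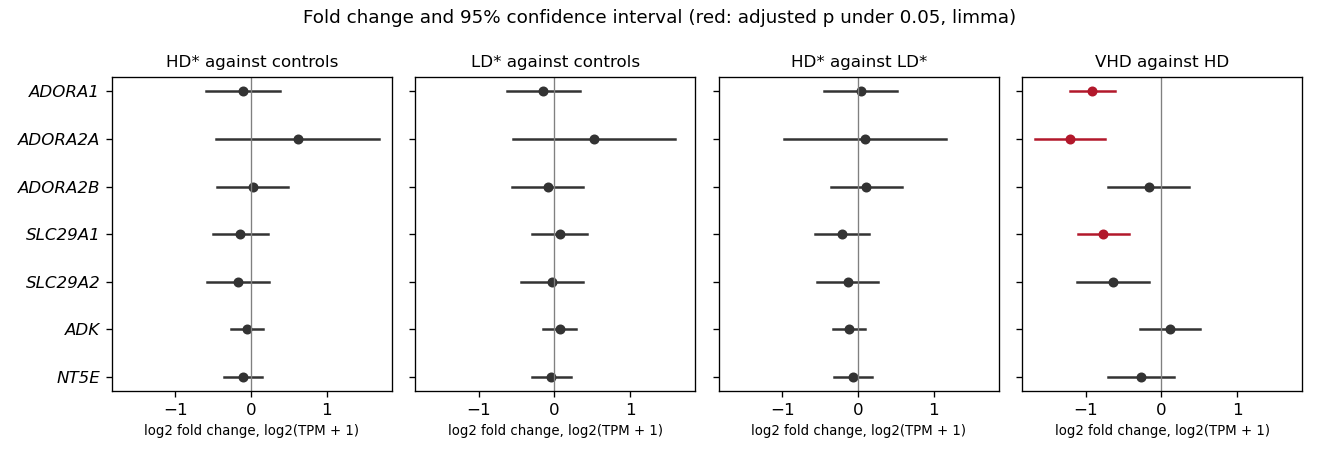
Log2 fold change of each gene on the log2(TPM + 1) scale with its 95% confidence interval in 4 comparisons, red where the adjusted p was under 0.05 (limma). All intervals of the first 3 comparisons include 0, and in VHD against HD the values of ADORA1 (−0.91), ADORA2A (−1.20) and SLC29A1 (−0.76) stand away from it, the interval of SLC29A2 also lying below 0.

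Within the HD* group, ADORA1, ADORA2A and SLC29A1 were lower in the 4 VHD animals than in the 4 HD animals, with no overlap between categories. Here 1997 of 13637 genes passed an adjusted p of 0.05 (14.6%), of which 1556 were lower in VHD (11.4%) and 441 higher (3.23%), and the ranges of 3180 genes did not overlap (23.3%). None passed the stricter threshold of 0.001, at which the paper's own analysis did report genes between these categories. The 7 genes thus gave 3 calls in a comparison in which about 1 gene in 7 was called, with a median log2 fold change of −0.64 beside −0.17 over all genes. Calls were more frequent among abundant genes. With a filter of 10 TPM, which all 7 genes met, 2186 of 9197 genes were called and the median was −0.23.

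ADORA1 was at 97.2, 86.5, 81.3 and 108 TPM in the HD animals and at 48.1, 53.7, 44.3 and 50.2 TPM in the VHD animals (log2 fold change −0.91, SE 0.139, adjusted p = 0.00467, limma). ADORA2A was at 486, 375, 489 and 375 TPM in HD and at 243, 117, 181 and 228 TPM in VHD (−1.20, SE 0.212, adjusted p = 0.00690). SLC29A1 was at 41.3, 46.3, 51.9 and 50.9 TPM in HD and at 31.3, 30.1, 26.6 and 22.9 TPM in VHD (−0.76, SE 0.155, adjusted p = 0.0108). Values stand in the order HD* 2, 3, 5 and 7 for HD and HD* 1, 4, 6 and 8 for VHD. The first pair of each category came from cohort 5 and the second from cohort 7a. As a description, the VHD values of ADORA1 and ADORA2A fell within the range of the controls, although HD* 4 with 117 TPM of ADORA2A lay below every control but Control 6. All 4 VHD values of SLC29A1 lay below the lowest control, 32.2 TPM, and LD* 5 at 23.1 TPM was as low. These positions are in TPM without TMM rescaling. The TMM factors, by which TPM are divided, ran from 0.689 to 1.13 in VHD animals and from 0.874 to 1.12 in controls. The order of these animals against controls can therefore change with rescaling.

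The other 4 genes did not pass. SLC29A2 was at 11.6, 15.2, 14.2 and 14.97 TPM in HD and at 8.22, 13.1, 7.07 and 7.07 TPM in VHD (−0.64, SE 0.22, adjusted p = 0.0692, limma), HD* 4 being the VHD animal within the HD range. NT5E gave −0.27 (SE 0.200, adjusted p = 0.375), ADORA2B −0.16 (SE 0.246, adjusted p = 0.672) and ADK 0.12 (SE 0.181, adjusted p = 0.682). TMM rescaling, which moved the median over all genes from −0.17 to 0.0056 and the calls to 1169 higher and 1414 lower in VHD, left ADORA1 at −0.71 (adjusted p = 0.0175), ADORA2A at −0.999 (adjusted p = 0.0471) and SLC29A1 at −0.56 (adjusted p = 0.0173), and brought SLC29A2 to −0.45 (adjusted p = 0.0486).

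Striatal neuron markers moved with this comparison. The test called 9 of 9 striatal projection neuron markers, 5 of 5 indirect pathway markers and 4 of 6 direct pathway markers lower in VHD, beside 11.4% of all genes, among them DRD2 (−1.19, SE 0.272, adjusted p = 0.0166, limma), PENK (−1.04, SE 0.206, adjusted p = 0.00969) and DRD1 (−1.21, SE 0.188, adjusted p = 0.00489), while TAC1 gave −0.06. Of 8 astrocyte markers 1 was called, GFAP (1.39, adjusted p = 0.0135, limma), with a list median of 0.24. Of 8 oligodendrocyte markers 1 was called, MBP (0.84, adjusted p = 0.0465, limma), while 4 had values above and 4 below 0 (median −0.043). Of 8 microglial markers 3 were called higher, AIF1, C1QA and C1QB, and 2 had values below 0 (median 0.44). All 5 cortical neuron markers (median −1.36), all 3 cholinergic interneuron markers (median −0.29) and all 5 vascular markers (median −0.25) had values below 0, and 0 of them were called. In fits added after the data were seen, with the astrocyte score as a covariate ADORA1 was at −0.97, ADORA2A at −0.97 and SLC29A1 at −0.80, and with the oligodendrocyte score they were at −0.90, −1.24 and −0.76, all with an adjusted p of at most 0.0124 (limma). The microglial, cortical neuron, cholinergic interneuron and vascular scores were not tried as covariates. The striatal neuron score, the mean over the 9 markers of centred log2(TPM + 1), ran from 0.579 to 0.910 in HD and from −0.864 to −0.128 in VHD, so that category and score cannot be told apart within these 8 animals. With the score as a covariate 0 genes passed, ADORA2A turned to 0.40 (adjusted p = 0.510), and ADORA1 (−1.04, adjusted p = 0.366) and SLC29A1 (−0.98, adjusted p = 0.367) kept their size with a wider error.

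In a fit of all 24 animals by category, added after the data were seen, the same differences were set against the larger spread of the controls and LD* animals, and 0 of 13637 genes passed (4608 at an unadjusted p under 0.05). SLC29A1 (−0.76, SE 0.195, adjusted p = 0.0555, limma) and ADORA1 (−0.91, SE 0.284, adjusted p = 0.0573) lay just outside the threshold and ADORA2A well outside it (−1.20, SE 0.708, adjusted p = 0.230). With the striatal neuron score added to that fit, ADORA2A was at 0.30, ADORA1 at −0.73 and SLC29A1 at −0.56, and without Control 6 they were at 0.078, −0.27 and −0.36. The size of the difference in ADORA1 and SLC29A1 at equal striatal neuron score thus depended on Control 6. Within the 8 animals, leaving out each in turn gave between 3 and 4 of the 7 genes, with ADORA1, ADORA2A and SLC29A1 called each time (largest adjusted p 0.0245, 0.0344 and 0.0498), while the count over all genes was 1094, 681, 607, 476 and 723 without HD* 2, 3, 5, 6 and 7 and 4651 without HD* 4.

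The genes coupled to these receptors were followed as a list of 18, of which 16 could be tested. In VHD against HD, 6 of 16 passed and all 6 were lower, beside 14.6% of all genes called and 11.4% called lower. The median was −0.56 over the list, beside −0.17 over all genes. They were the adenylyl cyclase ADCY5 (−0.90, SE 0.154), the G protein subunit GNAO1 (−0.89, SE 0.139), the metabotropic glutamate receptor GRM5 (−1.28, SE 0.218), the potassium channel subunit KCNJ9 (−0.67, SE 0.168), the phosphoprotein PPP1R1B (−1.03, SE 0.231) and the kinase subunit PRKACA (−0.68, SE 0.171). ADCY5 and PPP1R1B also belong to the striatal neuron markers. Of the 32 genes of the adenosine list above, 4 passed. Lower were the adenylate kinase AK5 (−1.01, SE 0.284, adjusted p = 0.0351, limma) and the ENTPD family members ENTPD3 (−1.19, SE 0.297, adjusted p = 0.0233) and ENTPD6 (−0.68, SE 0.136, adjusted p = 0.0100). The nucleotidase NT5C was higher (0.72, SE 0.159, adjusted p = 0.0145). That is 4 of 32 beside 14.6% of all genes, with a median of −0.052.

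Across the 24 animals ADORA2A had the highest correlation of the 7 genes with the striatal neuron score. Its Pearson's r was 0.979 with this score, 0.960 with the indirect pathway score and 0.956 with the direct pathway score (permutation p = 1e-05 each, the smallest that 100000 permutations can give, adjusted p = 0.00028 over 84 correlations, Spearman's rho 0.965, 0.948 and 0.899). ADORA2A itself is in none of these scores. The relation with the striatal score held at r = 0.970 without the 2 animals farthest from the median, Control 6 and Control 8, and at 0.987, 0.986 and 0.997 within cohorts 5, 7a and 7b. ADORA2A correlated inversely with the astrocyte score (r = −0.678, rho = −0.710, adjusted permutation p = 0.00084) and the microglial score (r = −0.594, rho = −0.756, adjusted permutation p = 0.0149), and these were −0.714 and −0.755 without Control 6. The microglial correlation did not pass after TMM rescaling (r = −0.459, adjusted permutation p = 0.0645).

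**Figure D3:**
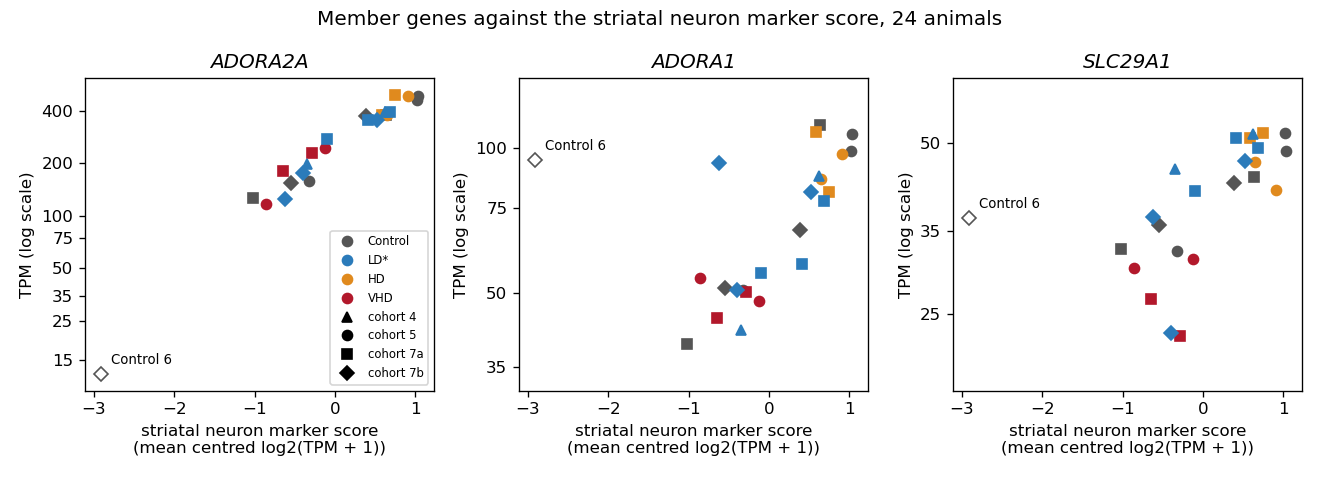
TPM on a log scale of ADORA2A, ADORA1 and SLC29A1 against the striatal neuron marker score of each animal, colored by category and shaped by cohort. ADORA2A rises along a narrow band (r = 0.979), whereas Control 6 keeps 94.7 TPM of ADORA1 and 36.8 TPM of SLC29A1 at the lowest score.

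ADORA1 and the transporters had lower correlations than ADORA2A with the striatal neuron scores, which were higher without Control 6. For ADORA1 and the striatal score r was 0.417 in all animals (permutation p = 0.0371, adjusted p = 0.104). The rho of this pair was 0.626 and did pass (adjusted permutation p = 0.00846). Without Control 6 its r was 0.802 (adjusted permutation p = 0.000315). Within cohorts 5, 7a and 7b r was 0.927, 0.878 and −0.378, the last cohort containing Control 6. Unless rho is named, passing refers here to the adjusted p of Pearson's r. In all 24 animals ADORA1 passed with the vascular score (r = 0.584, adjusted permutation p = 0.0188) and inversely with the microglial score (r = −0.558, adjusted permutation p = 0.0256). The vascular correlation did not pass after TMM rescaling (r = 0.399, adjusted permutation p = 0.134). For SLC29A1 and the indirect pathway score r was 0.618 (rho = 0.799, permutation p = 0.00106, adjusted p = 0.0111), 0.785 without Control 6, and 0.895, 0.75 and 0.304 within the cohorts. With the direct pathway score it was 0.582 (adjusted permutation p = 0.0186), and 0.826 without Control 6. SLC29A1 also passed with the vascular score (r = 0.509, adjusted permutation p = 0.0413) and inversely with the microglial score (r = −0.548, adjusted permutation p = 0.0256). The vascular one did not pass after TMM rescaling (r = 0.179). SLC29A2 gave r = 0.0020 with the striatal score in all animals and 0.552 without Control 6 (adjusted p = 0.0195). NT5E passed with the 3 striatal scores (r between 0.523 and 0.528, adjusted permutation p at most 0.0294), but with none of them without Control 6. It also passed with the vascular score (r = 0.550, adjusted permutation p = 0.0256), though not after TMM rescaling (r = 0.354). ADORA2B gave r between 0.148 and 0.164 with the 3 striatal scores and correlated with the cortical neuron score (r = 0.609, rho = 0.631, adjusted permutation p = 0.0149), at 0.550, 0.488 and 0.706 within the cohorts. ADK gave no adjusted p under 0.05 for Pearson's r with any score in all 24 animals. Its rho with the microglial score was 0.501 (adjusted permutation p = 0.0492). Without Control 6 its r was 0.575 with the astrocyte score (adjusted permutation p = 0.0138) and 0.546 with the microglial score (adjusted permutation p = 0.0195). It was then −0.572 with the indirect pathway score (adjusted permutation p = 0.014) and −0.547 with the striatal score (adjusted permutation p = 0.0195).

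Between the 7 genes, 4 of 21 correlations passed by Pearson's r. By this measure the transporters went together most closely, with r = 0.738 between SLC29A1 and SLC29A2 (rho = 0.671, permutation p = 6e-05, adjusted p = 0.00101). Their r was 0.844 without the 2 farthest animals and 0.621, 0.957 and 0.574 within cohorts 5, 7a and 7b. The highest rho between the 7 genes was that of ADORA2A and SLC29A1, 0.743 (adjusted permutation p = 0.00105). For that pair r was 0.482 in all animals (adjusted permutation p = 0.0554) and 0.723 without Control 6 (adjusted permutation p = 0.0014). ADORA1 correlated with SLC29A1 (r = 0.633, rho = 0.622, adjusted permutation p = 0.0111) and with SLC29A2 (r = 0.635, rho = 0.615, adjusted permutation p = 0.00924), and inversely with ADK (r = −0.500, rho = −0.523, adjusted permutation p = 0.0468), the last not passing without Control 6 (r = −0.468, adjusted permutation p = 0.0561). The 2 main striatal receptors, ADORA1 and ADORA2A, gave r = 0.258 (adjusted permutation p = 0.441) in all animals. Their rho in all animals was 0.570 and did pass (adjusted permutation p = 0.0192). Without Control 6 their r was 0.703 (adjusted permutation p = 0.002). In all, 23 of the 84 correlations passed by Pearson's r with Control 6 and 33 without it, 17 of them in both.

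**Figure D4:**
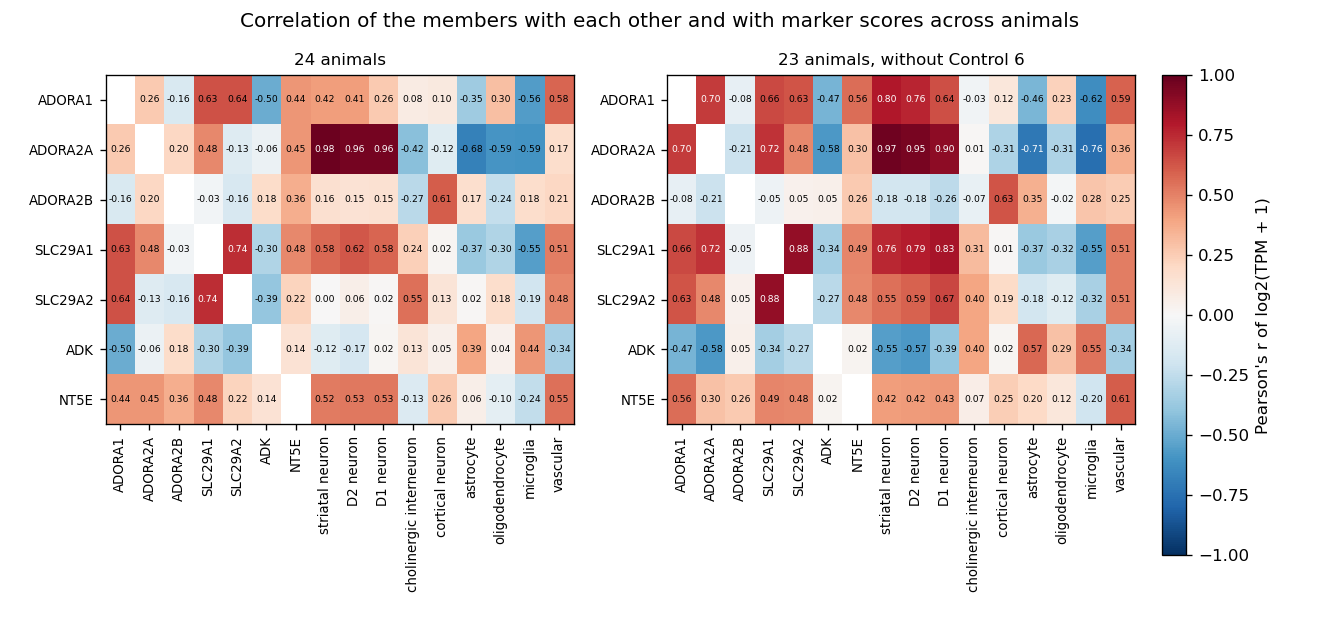
Pearson's r of log2(TPM + 1) between the 7 genes and with 9 marker scores, in all 24 animals (left) and without Control 6 (right). The ADORA2A row lies between 0.956 and 0.979 for the 3 striatal scores on the left, and the ADORA1 and SLC29A1 entries for these scores rise to between 0.64 and 0.83 on the right.

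Genes whose levels ran most like each of the 7 were sought among the 9197 genes that averaged 10 TPM or more, by Pearson's r over 24 animals and as a description. For ADORA2A they were KIAA1211L (0.977), ITPKA (0.977) and RGS9 (0.976), the last a regulator of G protein signalling and one of the striatal markers. Without Control 6 these stood at ranks 32, 25 and 6, and PDE1B (0.975), CAMK2B (0.972) and ADCY5 (0.971) led. For ADORA1 they were SLC24A2 (0.908), SMURF1 (0.884) and SIL1 (0.874), and SLC24A2 also led without Control 6 (0.937). SLC29A1 ran with GRINA (0.970), PLA2G15 (0.957) and CLUH (0.955), and SLC29A2 with ACTR1A (0.964), MFSD5 (0.958) and TOMM40 (0.954). ADORA2B had no gene above 0.689, its closest being LHX2 (0.689), ZNF703 (0.684) and the cortical marker SLC17A7 (0.676). ADK was closest to NDUFB5 (0.852), CNIH4 (0.839) and TM2D1 (0.836), and NT5E to CGGBP1 (0.845), VKORC1L1 (0.841) and RAB22A (0.835). With Control 6 left out, the closest were ZNF703 (0.757) for ADORA2B, ATG3 (0.881) for ADK and VKORC1L1 (0.832) for NT5E. GRINA and ACTR1A still led for SLC29A1 and SLC29A2.

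Ratios of TPM + 1 within an animal were compared as 6 pairs in 3 group comparisons. None of the 18 differences passed (exact permutation over 12870 assignments, two-sided, smallest p = 0.271 and adjusted p = 0.979). ADORA2A to DRD2 had a geometric mean near 1.2 in LD* and HD* animals and lay between 0.929 and 1.64 in 23 animals, against 0.299 in Control 6. In VHD against HD this ratio differed by −0.017 on the log2 scale (exact permutation over 70 assignments, p = 0.971), and ADORA2A to PENK by −0.16 (p = 0.200, exact permutation). SLC29A1 to ADK differed by −0.88, with p = 0.0286, the smallest that this exact permutation allows, and an adjusted p of 0.171 over the 6 ratios.

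Daily intake was related to the 7 genes among the 16 drinkers with group in the model, since LD* and HD* animals did not overlap in intake. No gene passed (0%), 1107 of 13637 reaching an unadjusted p under 0.05 (8.12%) and 0 of the 7. The slopes per g/kg were −0.43 for SLC29A1 (SE 0.213, adjusted p = 0.498, limma) and −0.43 for SLC29A2 (SE 0.219, adjusted p = 0.498), and those of the other 5 genes lay between −0.39 and 0.17. The slopes rested in part on LD* 2, the animal with the lowest intake, 0.47 g/kg. Without it they were −0.96 for ADORA1, −1.23 for ADORA2A, −0.80 for SLC29A1 and −0.71 for SLC29A2, each with an adjusted p of 0.294 (limma). These 4 slopes had an unadjusted p under 0.05 there, beside 2263 of 13637 genes (16.6%), and 1 gene of all passed the adjusted threshold. With the striatal neuron score in the model the slope of ADORA2A was −0.018 and that of SLC29A1 −0.26, while all 9 striatal markers had slopes below 0.

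Cohort is the only batch that the labels give. No gene differed between the 4 cohorts at an adjusted p under 0.05 with group in the model (0%, 1140 at an unadjusted p under 0.05, 8.36%). NT5E came closest (F = 2.75, adjusted p = 0.540, limma), with 17.2 ± 1.88 TPM in cohort 5 (n = 7), 14.0 ± 2.26 TPM in cohort 7a (n = 9), 15.4 ± 3.02 TPM in cohort 7b (n = 6) and 14.8 ± 0.835 TPM in cohort 4 (n = 2). HD* animals and controls occurred together only in cohorts 5 and 7a, where 0 genes had a different HD* effect (0%, 294 at an unadjusted p under 0.05, 2.16%). ADORA2B had the smallest p of the 7 genes in that test (difference between cohorts −0.96, SE 0.353, adjusted p = 1.00, limma) and the only one under 0.05 without adjustment. It was at 10.3, 14.3 and 14.6 TPM in the controls of cohort 5 and at 18.8 and 22.0 TPM in those of cohort 7a, and at 10.5 to 22.1 TPM and 9.72 to 14.2 TPM in the HD* animals of these cohorts.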

How the data were processed

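RNA from the NAcc core of 24 macaques (8 controls, 8 LD*, 8 HD*) was sequenced by the authors from polyA-selected libraries. They mapped reads to MacaM with STAR 2.5.2b, kept unique alignments and counted them per gene with HTSeq 0.6.1p1. The deposited values are the authors' TPM, and the gene lengths used for them are not given in the sources used here. Strand and read pairing are described differently in the sources. In RefSeq annotation of T2T-MMU8v2.0, a build other than MacaM, ADORA1, ADORA2A and SLC29A2 overlap noncoding RNA genes and ADK overlaps pseudogenes, so that reads shared with these cannot be told apart if strand was not used. Depth cannot be read from TPM, and tests on counts were not possible.

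Values were used as log2(TPM + 1) for genes that averaged 1 TPM or more. Group, category, intake and cohort came from the labels. Moderated linear models with an intensity trend (limma 3.58.1, R 4.3.3) gave fold changes, which understate changes of weak genes, with Benjamini-Hochberg adjustment over all genes tested. HD*, LD* and controls shared a model of 24 animals, VHD against HD used the 8 HD* animals, the HD* effect by cohort was taken in cohorts 5 and 7a, and intake used the 16 drinkers. Ratios were tested by exact permutation and correlations by 100000 permutations (Python 3.11.15, numpy 2.4.6, scipy 1.17.1, pandas 2.3.3, plots with matplotlib 3.10.9). A marker score is the mean of centred log2(TPM + 1) over a list, the 7 genes left out. GNAL and PECAM1 were not found and left their lists. The scripts were tested on simulated data. P-values measure the spread between animals, each measured once.

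The 7 genes, the lists of pathway, signalling and marker genes and the comparisons were chosen with earlier results of these data known. Genes named besides the 7 are DRD2, PENK, DRD1 and TAC1, ADA, the 3 turnover genes with the smallest p for HD* against controls and the 3 with the highest mean, the 3 genes most like each of the 7, the pathway and signalling genes called in VHD against HD and examples of marker genes, the last 2 chosen after their values were seen. For the most alike genes, leading genes without Control 6 are also named. Alternatives were pseudocounts of 0.1 and 8, a filter of 10 TPM or none, TMM rescaling (30% of M and 5% of A trimmed at each end), cohort and marker scores as covariates, subsets of groups and cohorts, and each animal left out in turn. Those added after the data were seen left out Control 6 or the animals with SLC17A7 above 100 TPM, put marker scores into the fit of VHD against HD or of intake, and fitted all 24 animals by category. Sequences of the genes were not used here.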

Additional observations from a re-analysis of the deposited data

Results flagged for a closer look

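Of 65 groups of values tested, 6 held a value that stood far from the rest of its group. The limit used flags about 1 group in 20 by chance when values are normally distributed. The groups shared animals and genes and the values were not log transformed, so the count cannot be read against that share. ADORA2B was at 22.09 TPM in HD* 3, against 9.72 to 15.1 TPM in the other 7 HD* animals, and HD* 3 also had 84.9 TPM of the cortical gene SLC17A7. SLC29A2 was at 23.15 TPM in Control 6, against 8.62 to 15.1 TPM in the other controls.

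The ratio of ADORA2A to ADORA1 was 0.141 in Control 6, against 2.96 to 5.43 in the other controls, and the ratio of ADORA2A to DRD2 was 0.2994 there, against 1.12 to 1.53. Control 6 thus had less ADORA2A per DRD2 than any other control, and the group differences of ADORA2A are given with and without it.

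The ratio of ADORA2A to PENK was 0.1718 in LD* 6, against 0.0883 to 0.120 in the other LD* animals. The ratio of SLC29A1 to SLC29A2 was 2.214 in HD* 4, against 2.92 to 3.50 in the other HD* animals.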

How the results depend on the processing

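The depth behind the TPM is unknown, so that counting error cannot be set beside any value, and among the HD* animals drinking category and striatal neuron score do not overlap. TPM are shares, and the median over all genes moved with TMM rescaling. No gene passed for HD* against controls, LD* against controls, HD* against LD* or cohort under any alternative. No paired analysis was possible because the animals were unrelated and each was measured once, in a single group.

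For VHD against HD, 1997 genes passed, 3 of the 7 among them. With the striatal neuron score, in all 24 animals, in all 24 with that score, and in all but Control 6 with that score, 0 genes and 0 of the 7 passed, and with the astrocyte score 5546 genes did. Leaving out 1 animal gave between 476 and 4651 genes and between 3 and 4 of the 7 here, between 0 and 1 genes for the intake slope, and between 0 and 14 genes for the HD* effect by cohort (1 without Control 2 and 14 without Control 7). With the striatal score ADORA2A turned to 0.398, ADORA2B to 0.547, NT5E to 0.167 and ADK to −0.33. In all 24 animals with the score ADORA2A was at 0.301, and without Control 6 it was at 0.0776 and ADK at −0.105. ADK was at −0.0844 with the astrocyte score and ADORA2B at 0.0299 with TMM rescaling. The cause was not tested.

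The other reversals were of values that passed no test. TMM rescaling turned HD* against controls for ADK (0.0736), ADORA1 (0.0194) and NT5E (0.0139), HD* against LD* for NT5E (0.0191) and the intake slope of NT5E (0.086). For HD* against controls ADORA2B turned to −0.0596 with cohort, −0.00777 with the striatal score, −0.0452 with the oligodendrocyte score, −0.111 with the striatal score and without Control 6, and −0.246 in cohorts 5 and 7a, and ADK to 0.0159 without the animals above 100 TPM of SLC17A7. For LD* against controls NT5E turned to 0.0928 with cohort and 0.0713 in cohorts 7a and 7b, where ADORA1 was at 0.00548. SLC29A1 turned to −0.00655 with the striatal and −0.016 with the oligodendrocyte score, and SLC29A2 to 0.0169 with the oligodendrocyte score and 0.109 with the striatal score and without Control 6. For HD* against LD*, cohort turned ADORA1 to −0.0426, ADORA2A to −0.572 and ADORA2B to −0.0417, leaving out the animals above 100 TPM of SLC17A7 turned ADORA1 to −0.137, ADORA2A to −0.248 and NT5E to 0.039, and in cohort 7a ADORA2A was at −0.189. The intake slope of ADK was −0.0235 without a group term, and those of ADORA1 and NT5E were 0.0339 and 0.00225 with the striatal score. Among the log2 ratios, SLC29A1 to ADK for LD* against controls was −0.000537 with TPM + 0.1, SLC29A1 to SLC29A2 for HD* against controls was −0.00415 with TPM + 8 and −0.0885 within cohorts, and within cohorts ADORA2A to DRD2 was −0.0801 and ADORA2A to PENK −0.173.

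Leaving out 1 animal also changed signs. For HD* against controls ADK ran from −0.0943 to 0.00396 and ADORA2B from −0.105 to 0.129. For LD* against controls ADORA2A ran from −0.014 to 0.723, ADORA2B from −0.215 to 0.0253 and SLC29A2 from −0.103 to 0.089. For HD* against LD* ADORA1 ran from −0.059 to 0.122, ADORA2A from −0.06 to 0.273 and ADORA2B from −0.00265 to 0.227. ADORA2B ran from −0.264 to 0.0505 for VHD against HD and from −0.392 to 0.278 for the intake slope, and NT5E from −0.127 to 0.0279 for the intake slope. The HD* effect by cohort ran from −0.492 to 1 for ADORA1, from −0.0756 to 1.5 for ADORA2A, from −0.377 to 0.064 for NT5E, from −0.046 to 0.364 for SLC29A1 and from −0.534 to 0.205 for SLC29A2. Ratios for HD* against controls ran from −0.146 to 0.19 (ADORA2A to DRD2), −0.0215 to 0.259 (ADORA2A to PENK), −0.105 to 0.101 (SLC29A1 to SLC29A2) and −0.143 to 0.0132 (NT5E to ADK), and for LD* against controls from −0.135 to 0.201 (ADORA2A to DRD2), −0.0333 to 0.156 (SLC29A1 to SLC29A2) and −0.0858 to 0.155 (SLC29A1 to ADK). For HD* against LD* they ran from −0.169 to 0.189 (ADORA2A to ADORA1), −0.0645 to 0.0529 (ADORA2A to DRD2), −0.0709 to 0.0662 (ADORA2A to PENK) and −0.0175 to 0.123 (NT5E to ADK). With TMM rescaling, 6 of the 23 correlations that passed no longer did (ADORA2A with microglia, SLC29A2 with cholinergic interneurons, NT5E with the direct pathway score, and ADORA1, SLC29A1 and NT5E with vascular markers). Without Control 6 those of ADORA1 with ADK, ADORA2A with oligodendrocytes, SLC29A2 with cholinergic interneurons and NT5E with the 3 striatal scores no longer passed. The cause was not tested.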
